A study of Mus musculus with 6 samples.

Results

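Grin2a, Grm2 and Grm4 encode glutamate receptors, and peaks of thyroid hormone receptor α (TRα) assigned to these 3 genes were examined in mouse gastrocnemius, a large calf muscle. They are 3 of 395 genes that annotation text in the deposited peak tables names, and they account for 102 of 491681 peaks. Peaks belong to a gene here because the text carried over below a peak row holds a RefSeq protein accession of that gene. The assay was ChIP-seq, in which DNA bound to a protein is pulled down with an antibody, here to TRα, from cross-linked muscle and sequenced. The groups are mice of 6, 15 and 21 months, with 2 mice each and 1 peak list per mouse, each called against input DNA of the same mouse. The sources used here do not give strain, sex or any treatment. A peak list holds no expression values, so the muscle label could not be checked against marker genes.

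The genes were chosen on readouts. Grin2a was picked for its many peaks and its place among the genes ranked highest by fold. Its highest single fold, 4.29, was nonetheless below that of other named genes, such as Drd1 with 25.1. Grm2 and Grm4 were picked for peaks that were present at one age and lacking at another. Peak counts, folds and presence by age are therefore a description of these genes, and no test was made of them. The trend of Grin2a with age was not used in the choice and was tested.

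Glutamate acts on ionotropic receptors, which are ion channels, and on metabotropic receptors, which signal through G proteins. Grin2a encodes GluN2A, a subunit of the NMDA receptor, a calcium-permeable channel. Grm2 and Grm4 encode metabotropic receptors that lower cyclic AMP and are best known for limiting transmitter release at nerve endings. In skeletal muscle of mammals, fast transmission from nerve to fibre uses acetylcholine. TRα is a nuclear receptor that binds DNA, mostly as a heterodimer with a retinoid X receptor, at elements made of copies of the half-site AGGTCA.

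The lists held 29405 to 106152 peaks, with the shortest that of replicate 2 at 15 months, and every list reached down to a p of about 0.01. Over all lists, 82.2% of peaks had a pileup of at most 5. Pileup counts the fragments that cover the summit, and fold is the authors' ratio of that pileup to the local background in input. A q of at most 0.05 was reached by 2.21% of all peaks, and by 1.16% to 4.27% of single lists. At such depth a missing peak does not show missing occupancy.

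Grin2a had 95 peaks, the most of any of the 395 named genes, and they were found in all 6 mice. With replicate 1 given first, mice of 6 months had 16 and 26 of them, mice of 15 months 18 and 7, and mice of 21 months 17 and 11. Relative to list length, the 2 youngest mice had 2.02 and 2.45 Grin2a peaks per 10000 peaks, those of 15 months 1.81 and 2.38, and the oldest 1.85 and 1.28. The highest value was that of replicate 2 at 6 months and the lowest that of replicate 2 at 21 months, and the values of neighbouring ages overlapped. Both mice of 21 months lay below both mice of 6 months. Each value has a wide counting interval. The exact 95% binomial interval was 1.60 to 3.59 per 10000 for the highest and 0.639 to 2.29 for the lowest, and these intervals overlap. Intervals of this kind cover counting error only.

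The mean was 2.24 ± 0.301 Grin2a peaks per 10000 at 6 months, 2.095 ± 0.403 at 15 months and 1.57 ± 0.407 at 21 months (SD, n = 2 each). No trend with age was detected beyond the spread between mice. Pearson's r with age was -0.67 (two-sided exact permutation p = 0.156 over 90 assignments of ages to mice). Adjusted over the 395 named genes by the Benjamini-Hochberg method, the exact permutation p was 1. This design allows no p below 0.0111, so at least 88 of the 395 genes would have to reach that value together before any could have an adjusted p of at most 0.05. Spearman's rho was -0.72 (exact permutation p = 0.178), and r was -0.68 once the 2 youngest mice, whose age is farthest from the median, were left out. Among all named genes, 2.28% had an unadjusted exact permutation p of at most 0.05 for this trend (9 genes) and 0 had an adjusted one. With only peaks of −log10 p of at least 3, r was -0.07 (exact permutation p = 0.911). The values were then 1.79 and 2.60 per 10000 for the youngest mice and 2.49 and 1.72 for the oldest, and they overlapped.

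**Figure D1:**
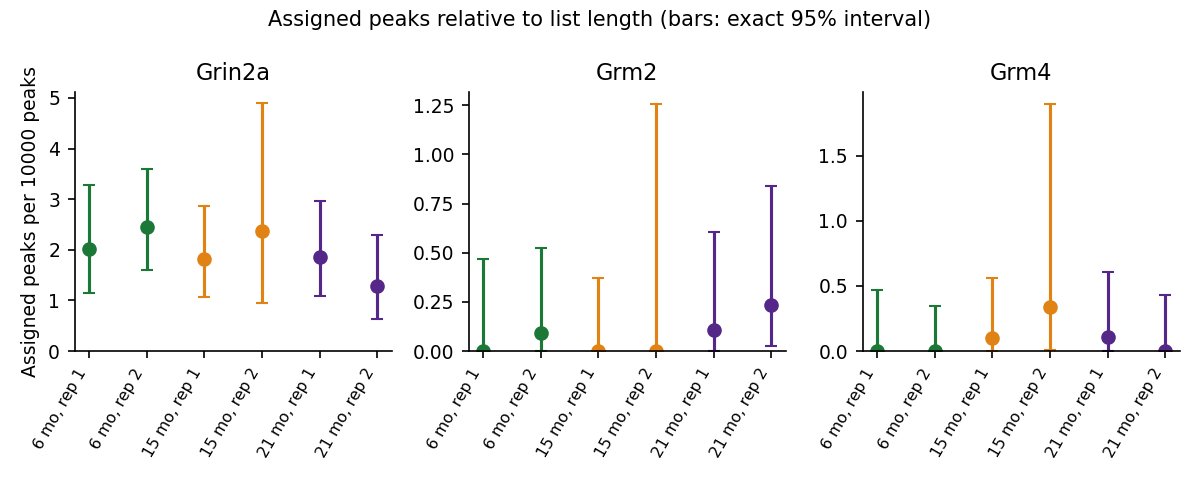
Peaks assigned to Grin2a, Grm2 and Grm4 per 10000 peaks of the list (vertical axes, which differ in range) in each of the 6 mice (horizontal axis); points are values and bars exact 95% binomial intervals. Grin2a lies between 1.28 and 2.45 with overlapping intervals, and Grm2 and Grm4 are at 0 in 3 mice each.

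Single Grin2a peaks were shallow. Their pileup ran from 3 to 8 fragments with a median of 4, and 80 of the 95 peaks had a pileup of at most 5. Their fold over input ran from 2.20 to 4.29 with a median of 2.92, where the median over all 491681 peaks was 2.82 and the highest fold was 1543. A fold of at least 4 was reached by 2 Grin2a peaks (2.11%), against 3.39% of all peaks. The median width was 280 bp, against 256 bp over all peaks. Ranked by fold within the list of its own mouse, the median Grin2a peak stood at the 57.1st percentile. The lowest stood at the 0.542nd and the highest at the 98.1st, and 5 Grin2a peaks (5.26%) were at or above the 95th.

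Only 1 of the 95 Grin2a peaks (1.05%) reached a q of at most 0.05, where 2.21% of all peaks did. It lay at chromosome 16, 9663070 to 9663496 (GRCm39), in replicate 2 at 6 months, with a pileup of 6, a fold of 4.29 and a q of 0.0435. The best Grin2a peak elsewhere had a q of 0.0807 in replicate 1 at 15 months and 0.116 in replicate 1 at 6 months. In the remaining 3 mice the best q was 0.245 in replicate 2 at 15 months, 0.172 in replicate 1 at 21 months and 0.404 in replicate 2 at 21 months. The deepest peak was that of replicate 1 at 6 months, at 9727483 to 9727868, with a pileup of 8 and a fold of 3.96. Pileups ran higher in that whole list, with a lowest of 4 and a median of 5, where the median over all peaks was 4. It supplied 9 of the 15 Grin2a peaks with a pileup of at least 6.

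The input at these peaks was ordinary for the lists. The local background can be recovered from pileup and fold, and its lowest value in a list is that library's genome-wide level. It stood within 1% of this level at 46 of the 95 Grin2a peaks (48.4%), against 49.5% of all peaks. The highest local background at a Grin2a peak was 2.45 times the genome-wide level of its list. No Grin2a peak therefore lay on a stretch with strongly raised input.

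**Figure D2:**
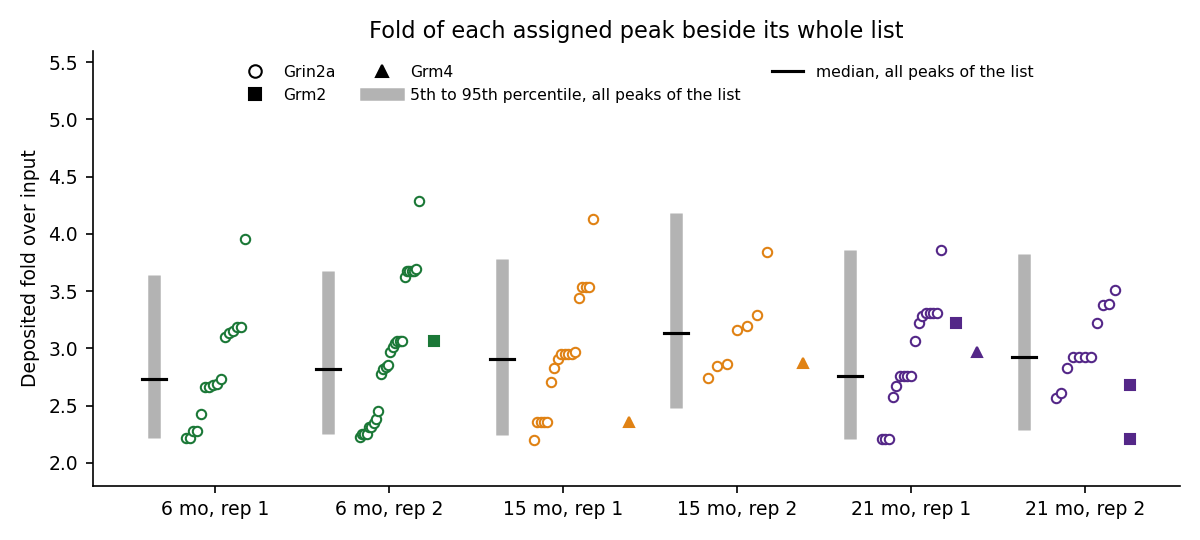
Deposited fold over input (vertical axis) of each peak assigned to Grin2a (open circles, ordered by fold), Grm2 (squares) and Grm4 (triangles) in the 6 mice, beside the median (black line) and the 5th to 95th percentile (grey bar) of all peaks in that list. Most Grin2a folds fall inside the grey bar, and the highest is 4.29.

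Grin2a peaks were spread over the whole assigned stretch and were uneven along it. The first began at chromosome 16, 9400124 and the last ended at 9827700 (GRCm39), a span of 427.6 kb. No peak inside this span lacked the Grin2a text or carried another name. The nearest peaks without the text, on the 2 sides, lay 449.6 kb apart, which is 105% of the length of Grin2a in the names table (428.2 kb in GRCm38.p6). Whether single peaks lie in exons, introns or outside the gene was not analysed here, since no annotation of the files' build was used.

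All 9 consecutive windows of 50 kb held Grin2a peaks, and so did all 18 windows of 25 kb. Counted from the first peak, the 8 full windows held 9, 14, 17, 15, 4, 16, 8 and 6 peaks, and the last, of 27.6 kb, held 6. The fullest window, 9500124 to 9550123, held 17 peaks from 5 mice, 6 of them in replicate 1 at 21 months. The emptiest full window, 9600124 to 9650123, held 4 peaks from 3 mice. It included the widest gap between neighbouring regions, 27.0 kb measured from summit to summit. Of the 95 peaks, 56 lay below the midpoint of the span and 39 above it. Peaks were thus densest from 50 to 200 kb and from 250 to 300 kb after the first one, and the highest pileup in a window ran from 5 to 8.

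Within single mice the peaks were also dispersed. Replicates 1 and 2 at 6 months had peaks in all 9 windows, and the mice at 15 months in 8 and 5. At 21 months 8 and 7 of the 9 windows held a peak. The median distance between summits of neighbouring peaks in a mouse was shortest, 9.91 kb, in replicate 2 at 6 months. It was longest, 47.5 kb, in replicate 2 at 15 months, which had the fewest peaks. Over all mice, neighbouring regions lay a median of 2.98 kb apart, again from summit to summit.

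**Figure D3:**
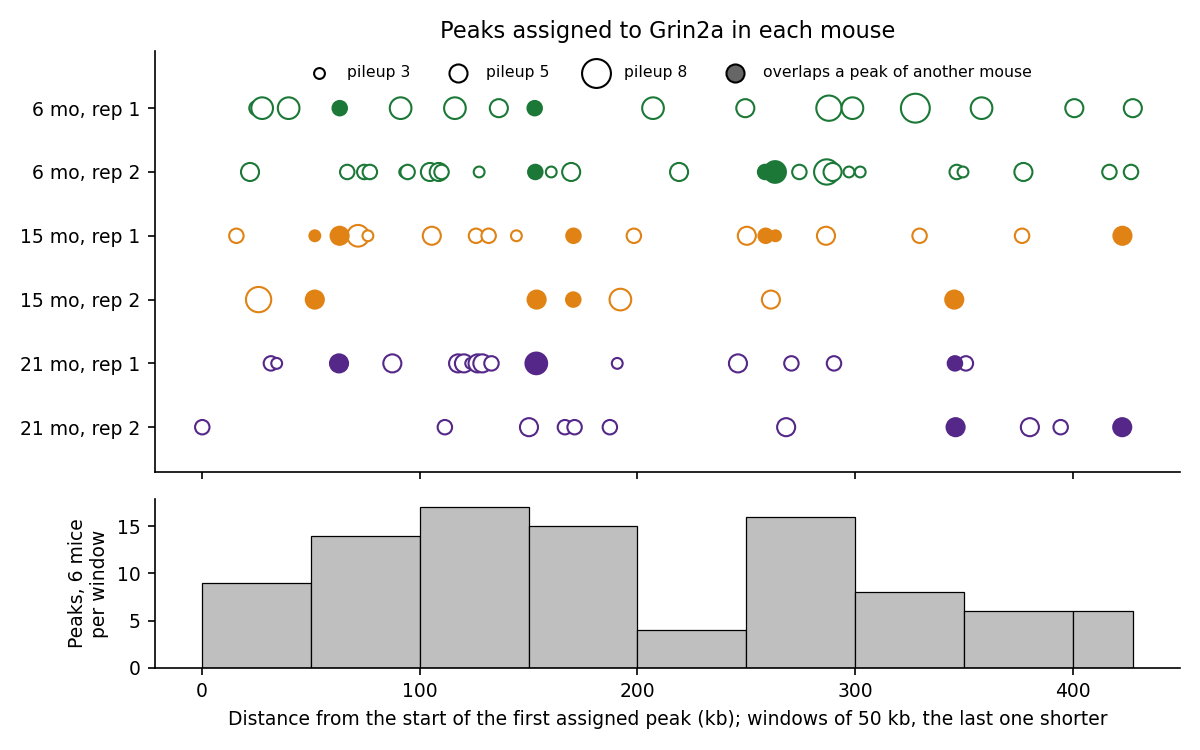
Positions of the 95 Grin2a peaks in the 6 mice (rows) by distance in kb from the start of the first peak, with circle area growing with pileup and filled circles for peaks that overlap a peak of another mouse; the bars count peaks of all mice per window. Peaks occur in all 9 windows, with 17 in the fullest and 4 in the emptiest full one.

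The number and spacing of Grin2a peaks were those of many autosomal stretches of the same length. The autosomes were divided into 5608 consecutive stretches of 427.6 kb, which held a median of 84 peaks, with 56 at the 5th and 109 at the 95th percentile. Of these, 23.6% held 95 peaks or more. The Grin2a span begins and ends at a peak by construction, and these stretches do not. By mouse, replicate 2 at 6 months stood highest, with 26 Grin2a peaks where its median stretch held 18, and 6.60% of stretches held as many or more. Replicate 2 at 21 months stood lowest, with 11 peaks where the median was 14. The other 4 mice had 16, 18, 7 and 17 peaks against medians of 13, 17, 5 and 15. Each of the 6 counts lay at or within the 5th and 95th percentile of its own list.

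Unevenness along the span was moderate on the same scale. The variance of peaks per full window was 2.22 times their mean, where the median stretch had 1.12 and the 95th percentile was 2.79, and 10.5% of stretches were more uneven. Gaps between the summits of neighbouring regions had a coefficient of variation of 1.07, against a median of 0.957, and 18.9% of stretches exceeded it. The widest gap of 27.0 kb was close to the median of the widest gaps, 25.8 kb. The median gap in Grin2a, 2981 bp, was shorter than that of the median stretch, 3710 bp, and 12.6% of stretches had a shorter one. At least 1 peak in every window was common as well, since 96.6% of stretches had all windows filled.

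**Figure D4:**
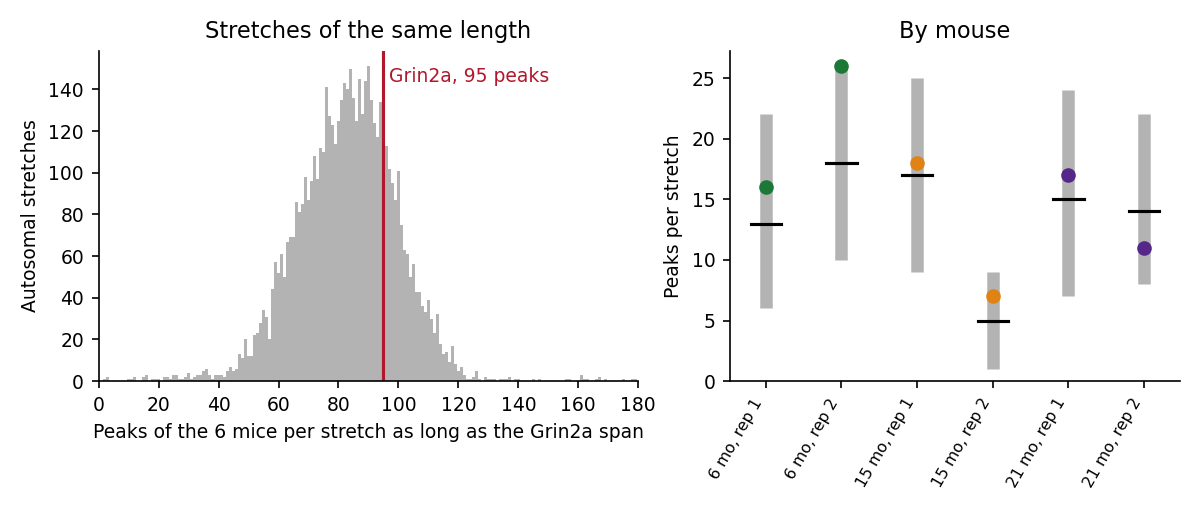
Left, autosomal stretches of 427.6 kb (vertical axis) by their number of peaks over 6 mice (horizontal axis, drawn to 180, with 6 stretches beyond it), with the Grin2a span as a line at 95. Right, Grin2a peaks per mouse (points) beside the median (line) and the 5th to 95th percentile (grey bar) of stretches in that list; all 6 points lie on or inside the bars.

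Few positions in Grin2a recurred between mice. Merged by an overlap of at least 1 bp, the 95 peaks formed 84 regions, of which 75 had a peak in 1 mouse, 7 in 2 mice, 2 in 3 mice and 0 in more. The 9 regions with peaks in at least 2 mice are 10.7% of the Grin2a regions, where the share over all 458111 regions was 6.40%. The 2 with at least 3 mice are 2.38%, where the share was 0.668%. Among the autosomal stretches the median held 5 regions with peaks in at least 2 mice, and 10.4% held 9 or more. The count of 9 of 84 regions became 19 of 67 when peaks within 1000 bp were merged, and 3 of 73 without replicate 1 at 15 months. It was 5 of 89 when the overlap had to cover 50% of the shorter peak. Among peaks of −log10 p of at least 3 it was 2 of 49, and among peaks with a pileup of at least 5 it was 3 of 44. Shares over all regions at these settings are not given here, so the higher Grin2a share is stated for the main setting only.

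Both regions found in 3 mice are chains of overlapping peaks, and no base of either lies under the peaks of all 3 mice. One, at 9462670 to 9463598, had peaks in replicate 1 at 6, 15 and 21 months, with pileups of 4, 5 and 5 and folds of 2.28, 3.54 and 3.06, which stood at the 12.4th, 90.0th and 68.8th percentile of their lists. The other, at 9745433 to 9746298, had peaks in replicate 2 at 15 months and both mice at 21 months, with pileups of 5, 4 and 5 and folds of 3.29, 2.76 and 3.37, at the 68.4th, 51.2nd and 80.9th percentile. No peak of these 2 regions reached a q of at most 0.05, the lowest being 0.367. The region of the one Grin2a peak with q of at most 0.05, at 9663070 to 9663599, was shared with replicate 1 at 15 months, where the pileup was 3 and the fold 2.36.

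Shared Grin2a regions were found both within and between ages. Both mice of 6 months shared 1 Grin2a region, at 9552934 to 9553404. Both mice of 15 months shared 2, at 9451809 to 9452065 and 9570296 to 9570917, and both mice of 21 months shared 1, the one at 9745433. Pairs of mice of different ages shared 0 to 2 regions. For same-age pairs this was 6.25% and 3.85% of the Grin2a regions of replicates 1 and 2 at 6 months. The shares were 11.1% and 28.6% in the pair of 15 months, and 5.88% and 9.09% in the oldest pair. A pair of different ages reached the same level: replicate 2 at 15 months, which had only 7 Grin2a regions, shared 28.6% of them with replicate 1 at 21 months (11.8% of the regions of the latter). The same shares over all regions are not given here for single pairs, and the lists differ in length. No pair is therefore read as sharing many or few regions.

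Grm2, the receptor that couples to inhibitory G proteins and is often presynaptic, had 4 peaks on chromosome 9 (GRCm39), in 3 mice. There was 1 in replicate 2 at 6 months, 1 in replicate 1 at 21 months and 2 in replicate 2 at 21 months, and none in replicate 1 at 6 months or in either mouse at 15 months. This is 0.0942, 0.109 and 0.233 Grm2 peaks per 10000 in the 3 mice that had any. In the lists with none, the limit that a count of 0 allows was 0.380 per 10000 in replicate 1 at 6 months, 0.302 in replicate 1 at 15 months and 1.02 in replicate 2 at 15 months. These limits lie above every Grm2 value that was seen, so a difference between ages was not detectable at this depth.

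The Grm2 peak at 6 months lay at 106536464 to 106536692, with a pileup of 4 and a fold of 3.06. At 21 months, replicate 1 had a peak at 106545395 to 106545943, with a pileup of 5 and a fold of 3.22. Replicate 2 had peaks at 106528441 to 106528652 and 106535898 to 106536098, with pileups of 4 and 3 and folds of 2.68 and 2.21. The positions differed in every case, where 93.6% of all regions had a peak in 1 mouse only. The lowest q was 0.544, so no Grm2 peak reached q of at most 0.05, where 2.21% of all peaks did. No other peak lay between the first and the last of them, a stretch of 17.5 kb. Without replicate 2 at 21 months, 2 Grm2 peaks were left.

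Like Grm2, 18 of the 395 named genes (4.56%) had peaks in each mouse of 21 months and in neither of 15 months. The pattern chose Grm2 and nothing is read from it. At 6 months Grm2 had a peak in 1 mouse of 2, so its presence did not order the ages.

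Grm2 is the only one of the 3 genes found in the RefSeq promoter table (GRCm38.p6), and its upstream sequence is shown as the one regulatory sequence of these genes used here. The 250 bases before the annotated start, chr9:106656110-106656359 on the minus strand in GRCm38.p6, read as follows.
Grm2 upstream: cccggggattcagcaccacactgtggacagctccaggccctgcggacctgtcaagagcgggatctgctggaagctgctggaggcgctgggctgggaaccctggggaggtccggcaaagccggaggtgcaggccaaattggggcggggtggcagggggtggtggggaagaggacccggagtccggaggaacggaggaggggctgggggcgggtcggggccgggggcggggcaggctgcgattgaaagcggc
No base is in capitals, since the half-site AGGTCA was not found on either strand. It was found in 14.0% of the 32851 windows of this length in the table, and 2 half-sites spaced as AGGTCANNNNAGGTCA in 5 of them (0.0152%). G and C made up 71.2% of the Grm2 sequence, against a median of 52.4%. These coordinates belong to another build than the peaks and cannot be set against them.

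Grm4, a receptor that is likewise mostly presynaptic, had 3 peaks on chromosome 17 (GRCm39), each in a different mouse. Replicates 1 and 2 at 15 months had 1 each and replicate 1 at 21 months had 1, which is 0.101, 0.340 and 0.109 Grm4 peaks per 10000. Neither mouse at 6 months and not replicate 2 at 21 months had one, with limits for a count of 0 of 0.380, 0.283 and 0.349 per 10000. The highest value, in replicate 2 at 15 months, rests on 1 peak in the shortest list. Values and limits overlapped, and a difference between ages was again not detectable.

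At 15 months the Grm4 peak of replicate 1 lay at 27716350 to 27716617, with a pileup of 3 and a fold of 2.36. Replicate 2 had its peak at 27719918 to 27720160, with a pileup of 5 and a fold of 2.87. The peak of replicate 1 at 21 months lay at 27740602 to 27740832, with a pileup of 5 and a fold of 2.97. None overlapped another, where 93.6% of all regions had a peak in 1 mouse only. No Grm4 peak reached q of at most 0.05 (lowest q 0.544), where 2.21% of all peaks did. No other peak lay in the 24.5 kb that the Grm4 peaks span. Peaks in both mice at 15 months and neither at 6 months, the pattern that chose Grm4, were found for 8 of 395 named genes (2.03%). Cutting every list to the length of the shortest left 1 Grm4 peak and 1 Grm2 peak.

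The other glutamate receptor genes gave context for these numbers. Of 18 ionotropic receptor genes only Grin2a and Grin2b, both NMDA receptor subunits, were named by the text. The 7 metabotropic receptor genes examined were all named. The text names a gene for only 0.775% of all peaks, so a gene without a name can still have peaks. These counts therefore do not compare binding between the kinds of receptor. Genes that the text does not name were not analysed here. Apart from Grin2a, Grm2 and Grm4, the 6 named receptor genes examined had 114 peaks, from 1 for Grm6 to 33 for Grm5. Of these peaks 0 reached q of at most 0.05, where 2.21% of all peaks did. Grm3, Grm5 and Grm7 had peaks in all 6 mice, as Grin2a did, and 18.5% of named genes did. Grm3, which is closest to Grm2 in signalling, had 16 peaks. Of the same subgroup as Grm4, Grm6 had 1 peak, Grm7 had 28 and Grm8 had 25. Grin2b had 11. Of the 110 regions of these 6 genes, 4 (3.64%) had peaks in 2 mice and none in more. The shares over all regions were 6.40% with at least 2 mice and 0.668% with at least 3.

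Peak counts of these genes went with the length of the stretch that carries the name. Between the nearest peaks without the name, this stretch measured 449.6 kb for Grin2a, 145.4 kb for Grm5, 137.4 kb for Grm7 and 149.6 kb for Grm8. It was 60.3 kb for Grin2b, 30.3 kb for Grm2 and 43.0 kb for Grm4. Per Mb of this stretch there were 211 Grin2a peaks, 227 for Grm5, 204 for Grm7, 167 for Grm8, 182 for Grin2b, 132 for Grm2 and 69.8 for Grm4. Over the 130 named genes with at least 10 peaks the median was 177 per Mb, with 110 at the 5th and 287 at the 95th percentile, and Grin2a ranked 31st by this density. By length of the span between first and last peak it ranked 1st of 395. Across these 130 genes the correlation of peak count with the length of the stretch was 0.84 (Spearman's rho 0.78), and with annotated gene length 0.29 (rho 0.34). The points share the 6 libraries, more peaks can themselves lengthen a stretch, and genes are not independent replicates, so these are descriptions.

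The genes differed in the length of the named stretch relative to the annotated gene length. This ratio compares lengths only, since where a stretch lies relative to its gene was not analysed. The stretch was 105% of the annotated gene length for Grin2a and 13.1% for Grin2b, although the 2 genes are of similar length (428.2 and 460.4 kb). It was 26.4% for Grm5, 17.4% for Grm8, 14.9% for Grm7 and 47.0% for Grm4. For the short gene Grm2 it was 262%. Counts of peaks per gene are therefore not comparable between Grin2a and the others as occupancy per gene.

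**Figure D5:**
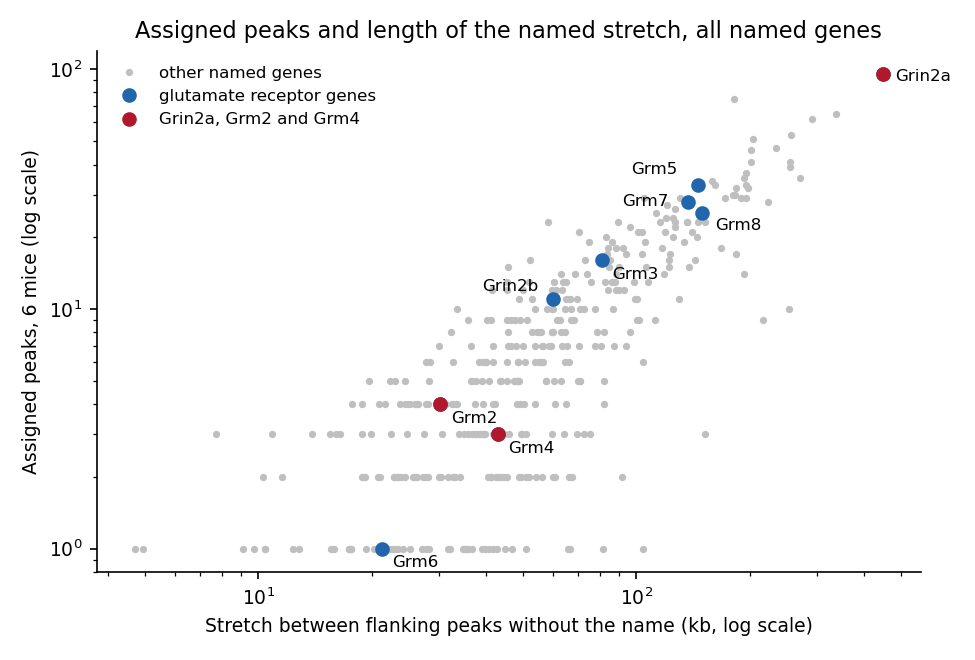
Assigned peaks over the 6 mice (vertical axis, log scale) against the length in kb between the nearest flanking peaks without the name (horizontal axis, log scale) for 395 named genes, with the 6 glutamate receptor genes given above in blue and Grin2a, Grm2 and Grm4 in red. Grin2a, with 95 peaks over 449.6 kb, is at the far end of the band that the other genes form.

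Genes of glutamate transport and postsynaptic scaffolds were named for 3 of 27, Dlg1, Dlg2 and Dlg3, which encode scaffold proteins that anchor NMDA receptors at synapses. They had 14, 29 and 23 peaks, 0 of which reached q of at most 0.05, where 2.21% of all peaks did. Peaks in at least 2 mice were found in 5 of 17 Dlg3 regions, 3 of 25 Dlg2 regions and 0 of 14 Dlg1 regions. Dlg3 and Dlg2 each had 1 region with peaks in 3 mice. Over all regions, 6.40% had peaks in at least 2 mice and 0.668% in at least 3. Of 16 genes of the neuromuscular junction, Erbb3 and Erbb4, receptors for neuregulin, were named, with 2 peaks each. In these lists too, a gene without a name can still have peaks. The lowest unadjusted exact permutation p for a trend with age among these 4 lists was 0.111, for Dlg3.

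The named genes whose peaks were distributed over the 6 mice most like those of Grin2a were Atp2b1, Igf1r and Bmpr1b. Likeness was the root mean square difference of centred log2(peaks per 10000 + 0.5), over 18 other genes with at least 30 peaks and peaks in all mice. The differences were 0.30, 0.31 and 0.31, against a median of 0.35, so these 3 genes were hardly closer to Grin2a than the rest. Atp2b1, a calcium pump of the plasma membrane, had 30 peaks, Igf1r, the receptor of insulin-like growth factor 1, had 33, and Bmpr1b, a receptor of bone morphogenetic proteins, had 41. The 4 genes next to Grin2a by number of peaks were Atg7 with 75, Foxp2 with 65, Fzd1 with 62 and Mef2c with 53. Their densities were 413, 192, 213 and 207 peaks per Mb of the named stretch, so Atg7, an autophagy enzyme, was denser than Grin2a and the other 3 were near it.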

How the data were processed

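Peak lists of 6 mice were used as deposited. The submitters' processing notes name MACS2 2.1.1.20160309, HOMER 3, SAMtools 1.3.1 and Trimmomatic 0.36, with builds GRCm39 and mm10. Aligner and caller options: not given in the sources used here. Scaffold names in the lists belong to GRCm39. The authors deposited pileup, a signal (fragments at the summit), and fold, a ratio over input. They also deposited −log10 of p and q, whose column names are lost and were taken from MACS2's order. These values belong to single peaks and describe them within a list. Labels give 2 mice per age.

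Overflow lines were read after 3987 peaks, and protein accessions in them were matched, without version, to symbols of GRCm38.p6. They named 1 gene for 3812 peaks (0.775%). Local background was (pileup + 1) / fold − 1. Peaks were merged by at least 1 bp. The age trend was tested by exact permutation on every named gene, with Benjamini-Hochberg adjustment. The permutation test was also run on simulated counts with counting error only, with a strong rise in some genes and none in others. That setting lacks further spread between mice, so it does not show how the test performs on these data. Python 3.11.15, pandas 2.3.3, NumPy 2.4.6 and SciPy 1.17.1 were used. The genes named are the 3 members, named genes of 4 lists (1 list gene is not reported here), the 3 genes most like Grin2a and the 5 with most peaks. Members and lists were chosen with earlier results of these data known. Alternatives were stricter limits on p and pileup, equal list lengths, other overlaps, windows and denominators, and leaving out each mouse. Sequences under the peaks are not shown, since no genome of this build was used.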

Additional observations from a re-analysis of the deposited data

How the results depend on the processing

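Depth limits every statement, since most peaks rest on 3 to 5 fragments. The Grin2a trend with age kept its negative sign and stayed above p = 0.05 under all 12 alternatives run, with r from -0.80 to -0.50 without single mice (exact permutation p from 0.1 to 0.4) and -0.07 for −log10 p of at least 3. With the replicate number as a block, r was -0.68 (exact permutation p = 0.194 over 36 assignments). The deviations of same-numbered mice, over 2412 autosomal windows of 1 Mb, correlated at 0.06, 0.11 and 0.06, so the numbers were not taken as pairs. Grin2a regions shared by at least 2 mice numbered 9 of 84. They were 5 of 89 with 50% of the shorter peak covered and 19 of 67 with peaks within 1000 bp. With −log10 p of at least 3 they were 2 of 49, with a pileup of at least 5 they were 3 of 44, and without single mice 3 to 8. Grm2 had 4 peaks, and 2 with −log10 p of at least 3, 1 with a pileup of at least 5, 1 with lists cut to the shortest, and 2 to 4 without single mice. Grm4 had 3 peaks, 1 with lists cut to the shortest and 2 to 3 without single mice. Why these counts moved was not tested.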
